A study of Vitis vinifera with 60 samples.

Results

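The genes described here had high messenger RNA in green grape berries at both green stages and little of it once the berries had softened. They were chosen from the measured values. Expression was given as FPKM, fragments scaled to the length of the transcript and to the mapped fragments of the library. The values were taken as log2(FPKM + 1) and averaged over 5 cultivars at each stage. A gene was included when its mean at soft berries (Soft) lay at least 3 below its mean at touching berries (Touch) and when its means at Touch and at pea-sized berries (Pea) were less than 1 apart. This gave 136 of the 29287 genes in the table, and 4 of the 136 are rows that join several identifiers. The fall from Touch to Soft and the closeness of Touch and Pea are therefore the rule itself, and they are given as a description without a test.

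The berries came from 5 white-skinned cultivars of Vitis vinifera, which were Garganega, Glera, Moscato bianco, Passerina and Vermentino, grown in 1 experimental vineyard in a single season. Pericarp, here the whole berry without its seeds, was taken at Pea, Touch, Soft and at ripeness for harvest (Harv), with no treatment and no genetic modification. The labels list 60 libraries, 3 for each cultivar and stage, and the deposited table holds the authors' mean FPKM for each of the 20 combinations. The spread between the libraries of a combination and the sequencing depth are unknown, and the error given below is the spread over cultivars. A value of exactly 0 is called listed at 0, and folds against such values are left out.

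A grape berry first grows as a hard green organ that divides its cells, stores tartaric and malic acid and lays down tannins in its skin. At softening, which opens the phase growers call véraison, it begins to import sugar, loses malic acid and remodels its cell walls. Many transcripts of the green phase are known to decline when ripening starts. The deposited identifiers come without gene names, and 0 of them matched the annotation table used here. No roles, positions or sequences are therefore given, the labelled tissue could not be checked against marker genes, and only a few genes are named by identifier.

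At the green stages the 136 genes ranged widely in level. Their means over the 5 cultivars ran from 8.08 to 2579 FPKM at Pea, with a median of 43.2 FPKM, and from 10.9 to 2478 FPKM at Touch, with a median of 46.3 FPKM. At Soft they ran from 0.0976 to 248 FPKM, with a median of 1.95 FPKM, and at Harv from 0.0111 to 92.8 FPKM, with a median of 0.639 FPKM. In every Pea column and every Touch column all 136 genes stood above 1 FPKM, and the lowest single green value was 1.30 FPKM. Means of at least 100 FPKM were found for 29 genes at Pea, 30 at Touch, 1 at Soft and 0 at Harv.

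Together the 136 genes held 1.93% ± 0.21 of the summed FPKM of a column at Pea (SD, n = 5 cultivars) and 1.56% ± 0.25 at Touch. Of the Soft columns they made up 0.103% ± 0.030, and of the Harv columns 0.0461% ± 0.0094. The lowest green share was 1.17%, in Moscato bianco at Touch, and the highest ripe share was 0.145%, in Vermentino at Soft. The gap between the green columns and Soft follows from how the genes were chosen. In bulk tissue, fewer cells of a type and less RNA per cell cannot be told apart, and a share of FPKM also moves with the other genes of the column. The Soft column of Moscato bianco holds an extremely high value of a gene outside the group, described below, which is part of the sum that the share is taken of. How far it moves the share was not tested. The summed FPKM of the 136 genes at Soft was 770 in Moscato bianco and 655 in Passerina. In Glera it was 1141, in Garganega 1152 and in Vermentino 1201.

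**Figure D1:**
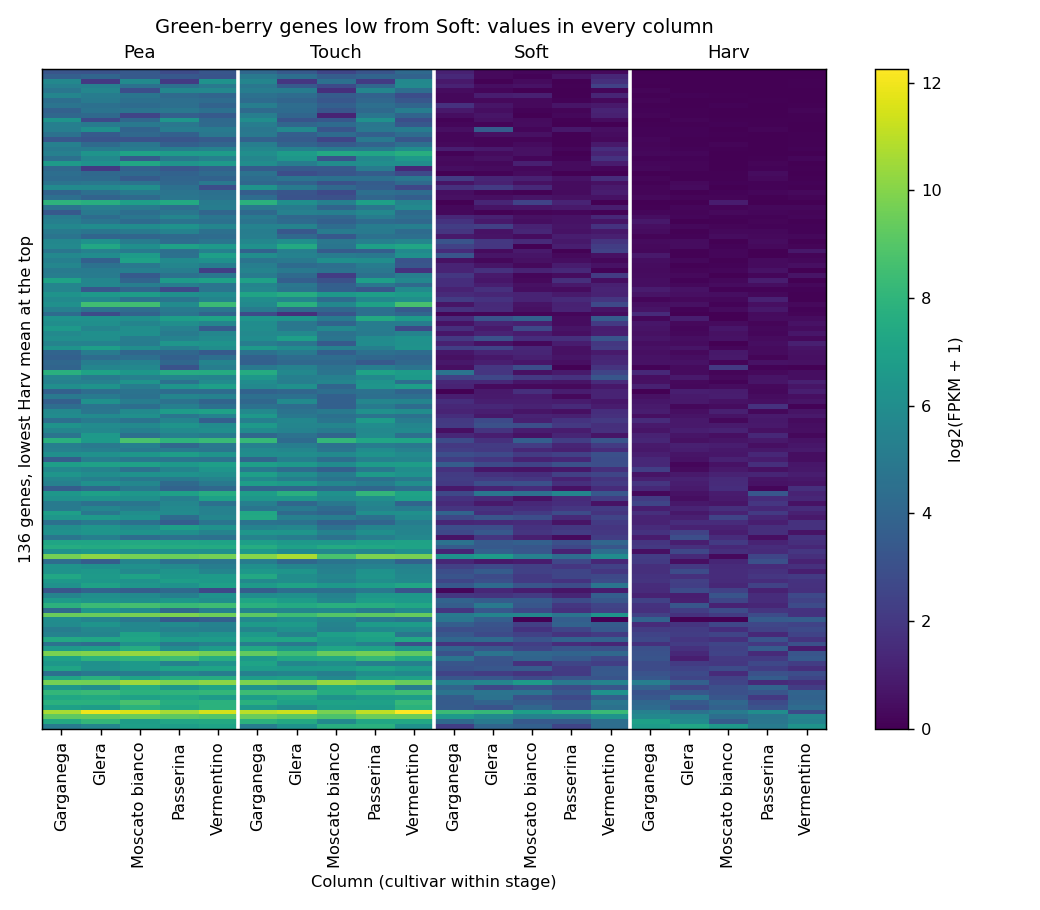
Values of all 136 genes (rows, ordered by their mean at Harv, lowest at the top) in the 20 columns (cultivars within stages), as log2(FPKM + 1) by colour. The green columns at left are bright throughout, and the Soft and Harv columns are dark except for a small band of genes at the bottom.

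The genes were not all switched off at Soft, and more of them were near 0 at Harv. At Harv, 64 of the 136 genes lay under 1 FPKM in all 5 cultivars, and at Soft 15 did. In a single cultivar, 77 genes in Garganega, 82 in Passerina, 85 in Moscato bianco, 87 in Vermentino and 89 in Glera were under 1 FPKM at Harv. At Soft the numbers were farther apart, with 38 in Garganega, 38 in Vermentino, 45 in Glera, 55 in Moscato bianco and 67 in Passerina. Relative to its mean FPKM at Touch, the median gene kept 1.29% at Harv (quartiles 0.502% and 3.60%) and 5.74% at Soft (quartiles 3.0% and 8.14%). Under 1% was left in 55 genes at Harv and in 9 at Soft, and 34 genes still reached 10 FPKM in at least 1 cultivar at Soft.

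The size of the fall that defines the group had a median of -3.52 on the log2(FPKM + 1) scale and ran from -6.57 to -3.01. In 7 genes it was below -5, in 26 between -5 and -4, in 40 between -4 and -3.5, and in the other 63 between -3.5 and the limit of -3. The means of the genes next to the limit differed little: the last 3 inside had changes of -3.0210, -3.0121 and -3.0084, and the first 3 outside had -2.9998, -2.9928 and -2.9857. For the other limit, Touch lay below Pea by 0.96, 0.95 and 0.92 in the last 3 genes inside, and by 1.01, 1.02 and 1.02 in the first 3 outside. In the fit over all genes, 15.2% of 20833 genes passed the adjusted p and a 2-fold change downward from Touch to Soft, and all 136 did so by the way they were chosen.

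FPKM are relative values, and between Touch and Soft their general level moved. The median log2 change over all 20833 genes tested was -0.31, so the median of the 136 genes lay 3.21 below it. With columns scaled to equal medians the median over all genes was 0.07 and that of the 136 genes was -3.10, which is 3.16 below it. The whole rule, with its limits as they were, was then met by 83 genes in place of 136, of which 81 are among the 136.

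VIT_18s0122g00290 had the largest fall of the group. It stood at 39.5 FPKM in Garganega, 81.2 in Glera, 136 in Moscato bianco, 106 in Passerina and 109 in Vermentino at Pea, and in the same order at 64.9, 108, 166, 150 and 204 FPKM at Touch. At Soft it was listed at 0 in Passerina and reached 0.0860 FPKM in Garganega, 0.279 in Glera, 0.484 in Moscato bianco and 1.34 in Vermentino. Its Soft values lay far below its green ones in all 5 cultivars, which follows from its choice by the size of this fall. At Harv it was listed at 0 in Passerina and Vermentino and stood at 0.0315 FPKM in Moscato bianco, 0.166 in Glera and 0.218 in Garganega.

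VIT_16s0022g02200 came next. Its values at Pea were 77.8 FPKM in Garganega, 97.6 in Glera, 112 in Moscato bianco, 70.5 in Passerina and 60.7 in Vermentino, and at Touch they were 143, 193, 98.7, 121 and 102 FPKM in that order. Its Soft values were 1.75 FPKM in Garganega, 1.47 in Glera, 1.34 in Moscato bianco, 0.876 in Passerina and 1.22 in Vermentino. At Harv it stood at 0.552, 0.407, 0.367, 0.188 and 0.0625 FPKM in the same order, lower than at Soft in all 5 cultivars. The means ± SD of this gene were 131 ± 38.7 FPKM at Touch and 1.33 ± 0.32 FPKM at Soft, a gap that follows from its choice by the size of the fall.

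The most abundant gene of the group, VIT_10s0116g01780, was reduced but not lost at Soft. The gene had 1603 FPKM in Garganega, 3983 in Glera, 2962 in Moscato bianco, 1526 in Passerina and 2822 in Vermentino at Pea. At Touch the values were 2032 FPKM in Garganega, 2467 in Glera, 853 in Moscato bianco, 2173 in Passerina and 4863 in Vermentino. At Soft between 119 FPKM (Moscato bianco) and 330 FPKM (Garganega) remained, above the median gene of the group at Pea or Touch. At Harv it stood at 40.2 FPKM in Garganega, 22.9 in Glera, 32.8 in Moscato bianco, 62.1 in Passerina and 6.01 in Vermentino.

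VIT_06s0004g04640, the second most abundant, was steadier while green, at 787 to 1384 FPKM at Pea and 674 to 1277 FPKM at Touch. Its Soft value was 102 FPKM in Moscato bianco and between 29.8 and 48.5 FPKM in the others. At Harv it stood at 36.4 FPKM in Garganega, 12.7 in Glera, 4.79 in Moscato bianco, 2.09 in Vermentino and 1.73 in Passerina. The cultivar with the highest value at Soft was thus not the one with the highest value at Harv.

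**Figure D2:**
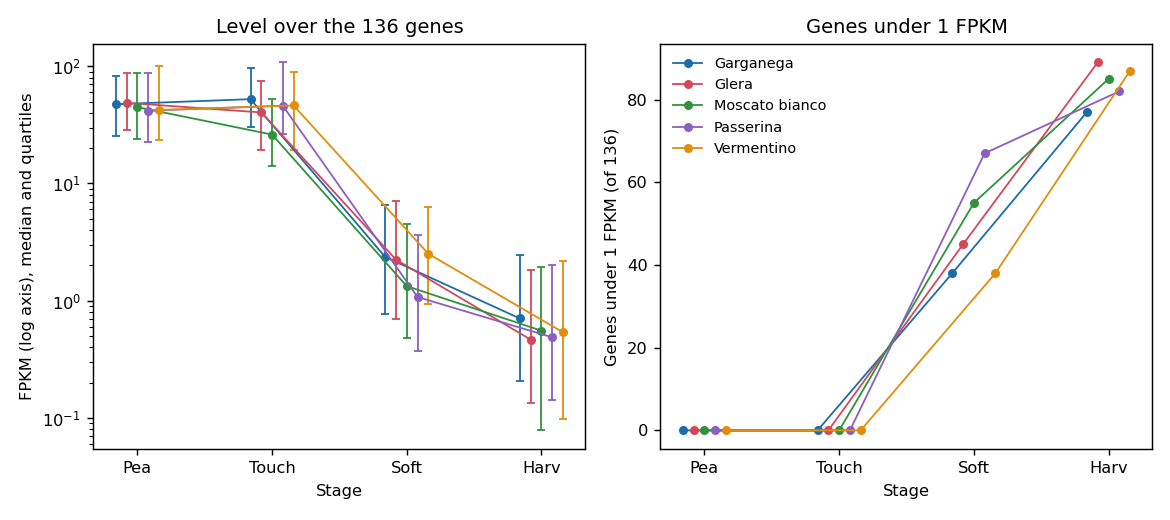
Left, FPKM of the 136 genes (log axis; points are medians over genes, bars run between the quartiles) by stage and cultivar; right, the number of the 136 genes under 1 FPKM. Medians at Touch run from 26.1 FPKM in Moscato bianco to 52.4 FPKM in Garganega, and at Harv from 0.465 FPKM in Glera to 0.704 FPKM in Garganega.

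The fall was common to the 5 cultivars. All 136 genes were lower at Soft than at Touch in each cultivar, 135 of them at least 2-fold in all 5 cultivars and 42 at least 8-fold in all 5. The rule used these same values and favours such agreement, so these counts are a description. To see the fall in values that took no part in the choice, the rule was applied to 4 cultivars and the change was read in the fifth. In Vermentino, 151 of 155 genes chosen on the others were at least 2-fold lower at Soft, and in Garganega 131 of 132 were. In Glera the count was 147 of 149, in Moscato bianco 160 of 164 and in Passerina 117 of 117. Over all 20833 genes, 14.5% (Moscato bianco) to 21.3% (Passerina) were that much lower at Soft, and over the 12163 genes with a Touch mean of at least 3 on the log2 scale it was 17.4% (Glera) to 23.2% (Passerina).

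The depth of the fall in the cultivar left out was uneven. The median change was -4.13 in Passerina, -3.55 in Garganega, -3.20 in Glera, -3.11 in Moscato bianco and -3.11 in Vermentino. Each of these medians is over a different set of genes, which itself depends on the cultivar left out. Over the fixed 136 genes the medians were -4.09, -3.77, -3.30, -3.30 and -3.37 in the same order. A fall of at least 8-fold was found for 90.6% of the chosen genes in Passerina, and for 56.1% (Moscato bianco) to 73.5% (Garganega) in the others. The same share over all genes was not counted. Over all 20833 genes the median change was also lowest in Passerina, at -0.347, against -0.314 (Vermentino) to -0.270 (Garganega) in the others. A deeper fall in Passerina is therefore not shown to be particular to the chosen genes. In Vermentino and in Moscato bianco single genes were listed higher at Soft, by up to 1.72 and 16.83 on the log2 scale. The rise of 16.83 belongs to a gene outside the fixed set and implies an extremely high FPKM in the Soft column of Moscato bianco. Whether that value is an error of its row was not tested, so it is not read as a rise in expression.

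Moscato bianco stood apart at Touch. The median of the 136 genes in its Touch column was 26.1 FPKM, against 40.4 to 52.4 FPKM in the other cultivars, while at Pea it was 44.8 FPKM, against 41.8 to 48.7 FPKM. Of the 5 cultivars it was the lowest at Touch for 79 genes and the highest for 5. At Pea it was the lowest for 30 and the highest for 31, and such counts were not made over all genes. In Moscato bianco 42 of the 136 genes were at least 2-fold lower at Touch than at Pea, and in 29 of these no other cultivar was. The same count was 18 in Vermentino, 17 in Glera, 3 in Passerina and 2 in Garganega.

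The rule averages over cultivars at these stages and so does not fix which cultivar is low, but it does limit how low all can be. Among 164 genes chosen without Moscato bianco, 58 (35.4%) were at least 2-fold lower at Touch than at Pea in Moscato bianco. With the other cultivars left out in turn, the shares were 19.4% in Vermentino, 14.1% in Glera, 2.56% in Passerina and 2.27% in Garganega. Over all 20833 genes the share was 8.27% in Moscato bianco, 8.31% in Vermentino and 5.79% (Glera) to 7.1% (Passerina) in the others. Moscato bianco was thus not the highest over the whole table. Over the 12163 genes with a Touch mean of at least 3, a limit that leaves out genes low at Touch, it was 5.28% in Moscato bianco and 2.43% to 4.14% in the others. With a single value per cultivar and stage, this difference between cultivars was not tested.

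Passerina had the lowest values at Soft. Its median over the 136 genes was 1.07 FPKM at Soft, against 1.33 FPKM in Moscato bianco, 2.24 in Glera, 2.36 in Garganega and 2.51 in Vermentino. It was the lowest of the 5 cultivars for 62 genes and the highest for 6, while Vermentino was the highest for 46. Such counts were not made over all genes. In Passerina 21.3% of all 20833 genes were at least 2-fold lower at Soft than at Touch, against 14.5% to 18.1% in the other cultivars. Low Soft values in Passerina are therefore not shown to be particular to the 136 genes. Chosen without Passerina, 117 genes included 56 for which Passerina was the lowest at Soft. At Harv its median of 0.486 FPKM lay among the others, which ran from 0.465 FPKM in Glera to 0.704 FPKM in Garganega.

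**Figure D3:**
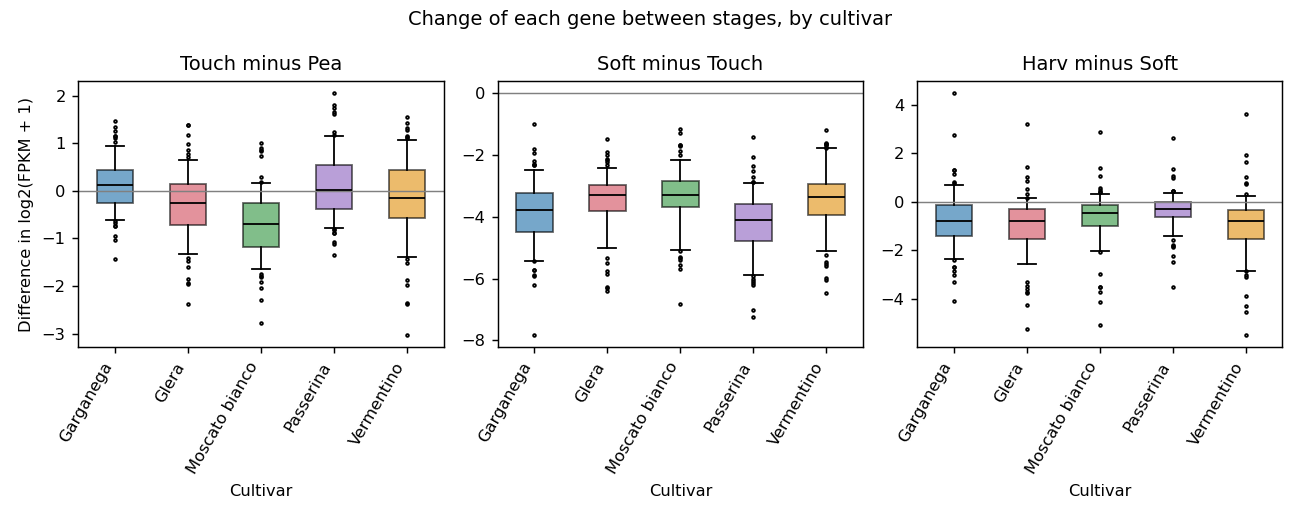
Difference in log2(FPKM + 1) of each of the 136 genes between successive stages, by cultivar (boxes, quartiles with the median as a line; whiskers, 5% to 95% of genes; dots, genes beyond). Moscato bianco lies lowest for Touch minus Pea (median -0.70), and Passerina lies lowest for Soft minus Touch (median -4.09) and nearest to 0 for Harv minus Soft (median -0.30).

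The comparison of Harv with Soft was not used to choose the genes, although the Soft columns were. Part of the group fell further. In limma's moderated test with the cultivars as replicates (n = 5 at each stage), 38 of the 136 genes (27.9%) fell by at least 2-fold with an adjusted p under 0.05, where 5.15% of all 20833 genes did. The same test called 3 genes (2.21%) higher, where 2.05% of all genes were. Past the adjusted p at any size, 62 genes (45.6%) were lower and 3 (2.21%) higher, where 19.6% of all genes were lower and 16.7% higher. The median log2 change was -0.65 for the group and -0.02 for all genes.

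A gene with a Soft mean under 1 on the log2(FPKM + 1) scale cannot fall 2-fold on that scale, and 45 of the 136 genes lay there. Of the 91 with a Soft mean of at least 1, 38 (41.8%) were called lower, against 6.64% of the 16168 genes in the table with such a mean. Higher calls were made for 2 of the 91 (2.2%), against 1.9% of the 16168. The 38 genes had a median of the means of 92.1 FPKM at Touch, 6.01 FPKM at Soft and 1.01 FPKM at Harv, and their log2 changes from Soft to Harv ran from -4.11 to -1.02. They were lower at Harv in all 5 cultivars in 34 of the 38 cases, an agreement that the call itself favours. The 51 genes with a Soft mean of at least 1 that were not called had a median of 1.78 FPKM at Harv and 2.49 FPKM at Soft. With a pseudocount of 5 in place of 1, 10 of the 136 genes (7.35%) were called lower, where 2.25% of all genes were.

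VIT_16s0022g00670 fell most from Soft to Harv, by 4.11 in log2 units (SE 0.37, adjusted p = 4.98e-06). At Harv it stood at 3.49 FPKM in Garganega, 1.78 in Glera, 0.220 in Moscato bianco, 4.87 in Passerina and 2.17 in Vermentino, against 75.6, 104, 40.5, 19.9 and 61.6 FPKM in the same order at Soft. Every cultivar was lower at Harv and the ranges did not overlap, which its choice by the size of this fall favours. While green the gene was among the most abundant of the group, at 424 (Moscato bianco) to 1629 FPKM (Glera) at Touch and 727 to 1137 FPKM at Pea. Its change from Touch to Soft, part of the rule, was -4.07, close in size to the one that followed.

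VIT_01s0026g01950 fell by 3.28 (SE 0.26, adjusted p = 3.18e-06). It stood at 3.93 FPKM in Garganega, 2.40 in Glera, 3.38 in Moscato bianco, 6.04 in Passerina and 2.44 in Vermentino at Harv, against 30.5, 45.8, 48.9, 24.9 and 79.4 FPKM in the same order at Soft. The 5 cultivars were again all lower at Harv without overlap, which the same choice favours. Its green values were 351 to 646 FPKM at Touch and 694 to 901 FPKM at Pea. The 2 most abundant genes also fell from Soft to Harv, VIT_10s0116g01780 by 3.10 (SE 0.55, adjusted p = 0.000633) and VIT_06s0004g04640 by 2.71 (SE 0.51, adjusted p = 0.000884).

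**Figure D4:**
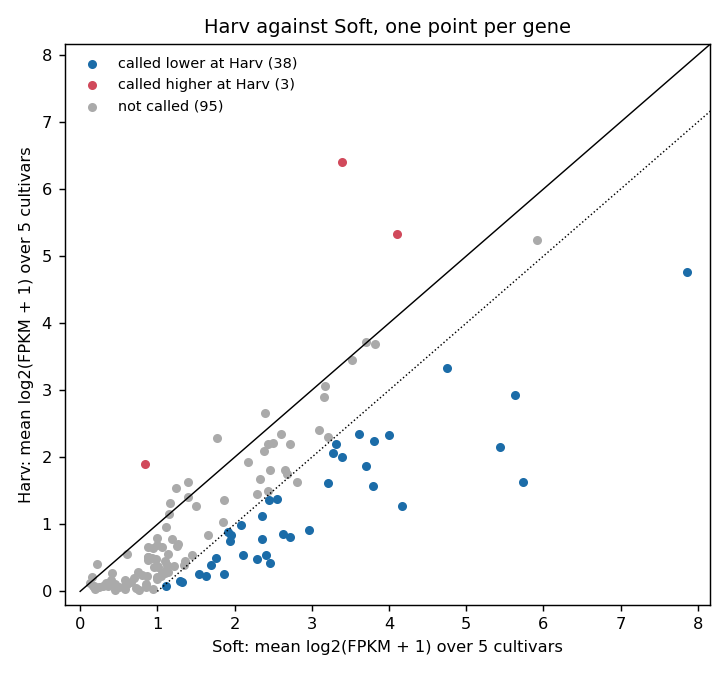
Mean log2(FPKM + 1) over 5 cultivars at Harv against that at Soft, 1 point per gene, coloured by the call of limma's test. The solid line marks equal values and the dotted line a 2-fold lower value at Harv; 38 genes called lower lie below the dotted line and 3 called higher lie above the solid line.

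The 3 genes called higher at Harv are 2.21% of the group, near the 2.05% of all genes called higher. Low Soft values were part of the rule, which favours higher values at Harv. These 3 genes stood nearer their green level at Harv than at Soft, to different degrees. The joined row VIT_05s0020g04670,VIT_05s0020g04680 rose by 3.01 (SE 0.51, adjusted p = 0.000463). At Harv it stood at 106 FPKM in Garganega, 149 in Glera, 97.3 in Moscato bianco, 33.7 in Passerina and 78.5 in Vermentino, against 3.82, 15.1, 12.6, 4.70 and 19.9 FPKM in the same order at Soft. Its lowest value at Harv thus lay above its highest at Soft, which its choice by the size of this rise favours. Its mean at Harv was 76.9% of its mean at Touch, the highest share of the group. The row joins 2 identifiers, and it is not known which of them the values come from.

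VIT_11s0016g03540 rose by 1.23 (SE 0.30, adjusted p = 0.00522). It stood at 122 FPKM in Garganega, 57.6 in Glera, 10.9 in Moscato bianco, 27.1 in Passerina and 42.6 in Vermentino at Harv, against 17.2, 31.1, 9.80, 9.98 and 20.5 FPKM at Soft. The ranges overlapped, and in Moscato bianco the values at Harv and Soft were close. Without Garganega the change was 0.85 (adjusted p = 0.0142 in limma's test) and under 2-fold, so the 2-fold part of the call rests on that cultivar.

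VIT_19s0090g01170, named after its values were seen because it is the remaining gene called higher, rose by 1.06 (SE 0.28, adjusted p = 0.00969). It stood at 1.84 FPKM in Garganega, 5.88 in Glera, 4.10 in Moscato bianco, 1.18 in Passerina and 2.26 in Vermentino at Harv, against 0.144, 1.58, 0.965, 0.626 and 0.928 FPKM at Soft. All 5 cultivars were higher at Harv, which the call favours, although the ranges of the stages overlapped. The call was lost without Garganega (0.99), without Glera (0.97) and without Moscato bianco (0.98), each just under 2-fold, and with a pseudocount of 5 (0.43). At Touch its mean was 18.0 FPKM and at Pea 11.2 FPKM.

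By cultivar, the number of the 136 genes at least 2-fold lower at Harv than at Soft was 56 in Vermentino, 52 in Glera, 50 in Garganega, 31 in Moscato bianco and 20 in Passerina. Between 3 and 5 genes per cultivar were at least 2-fold higher. The low count in Passerina goes with a low count over the whole table, where 2.73% of all genes were that much lower at Harv in Passerina, against 7.48% to 8.78% in the others. It also goes with the low Soft values of the group in Passerina given above. The part of either in the count was not tested. Over the 5 cultivars 85 of the 136 genes were lower at Harv in all, 3 were higher in all and 48 were mixed. The same counts over all genes were not made, so these numbers are a description.

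Cultivars also differed in how strongly the genes were expressed while green, a property that the rule does not use because it averages over cultivars. The cultivar term was tested with limma's moderated F test on the 10 Pea and Touch columns, with the unevenness between both stages as the error. A gene was called at an adjusted p under 0.05 and a range of at least 2-fold between the highest and the lowest cultivar mean. Of the 136 genes 38 (27.9%) were called, where 18% of all 20833 genes and 12.5% of the 12163 genes with a Touch mean of at least 3 were. The median range was 1.17 on the log2 scale for the group, 0.60 for all genes and 0.51 for those with such a Touch mean. The stages of a cultivar come from 1 vineyard and season, so this test does not cover differences between vines. Without Passerina 22 of the 136 genes (16.2%) were called, close to the 14.6% of all genes in that run, and without Glera 24 (17.6%) against 13.8%.

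Among the 38 called genes the range had a median of 3.64-fold and reached 15.9-fold, with at least 4-fold in 18 genes and at least 8-fold in 7. The lowest cultivar was the same at Pea and at Touch in 30 of the 38 genes, and the highest was the same in 20. The call itself favours genes with the same order at both stages, so these counts are a description. No cultivar held all the extremes. Garganega was the highest in 12 of the 38 genes (31.6%), near its 31.2% of the 3746 called genes of the whole table, and Vermentino was in 8 and Glera in 5. Passerina was the highest in 11 (28.9%, against 18.2% in the whole table) and Moscato bianco in 2 (5.26%, against 16.6%). Moscato bianco was the lowest in 11 (28.9%, against 28.5% in the whole table), Vermentino in 10, Glera in 8, Garganega in 5 and Passerina in 4. These shares were not tested against each other. Of these 38 genes, 11 were also called between Soft and Harv.

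The widest range was found for VIT_12s0059g02180, in 2 separate classes of cultivar. At Pea it stood at 75.7 FPKM in Vermentino, 57.6 in Moscato bianco and 51.1 in Garganega, against 3.19 in Passerina and 3.05 in Glera. At Touch it stood at 51.0, 22.0 and 46.6 FPKM in Vermentino, Moscato bianco and Garganega, against 3.27 FPKM in Passerina and 2.89 FPKM in Glera. The range was 3.99 on the log2 scale (adjusted p = 0.00192), and the 3 high cultivars did not overlap the 2 low ones at either green stage. Its choice by the size of this range favours such a gap. At Soft all 5 were at or under 2.13 FPKM and at Harv at or under 0.0422 FPKM.

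VIT_09s0002g00550 had the next widest range, 3.55 (adjusted p = 0.0131). It stood at 136 FPKM in Garganega, 129 in Vermentino, 104 in Passerina, 48.6 in Glera and 14.9 in Moscato bianco at Pea, and at 129, 50.1, 121, 12.0 and 7.22 FPKM in the same order at Touch. Moscato bianco was the lowest at both stages, and Garganega the highest. Without Moscato bianco the range was 2.40 and the adjusted p was 0.0727, so the call rests on that cultivar. At Soft it stood at 0.255 to 2.17 FPKM.

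**Figure D5:**
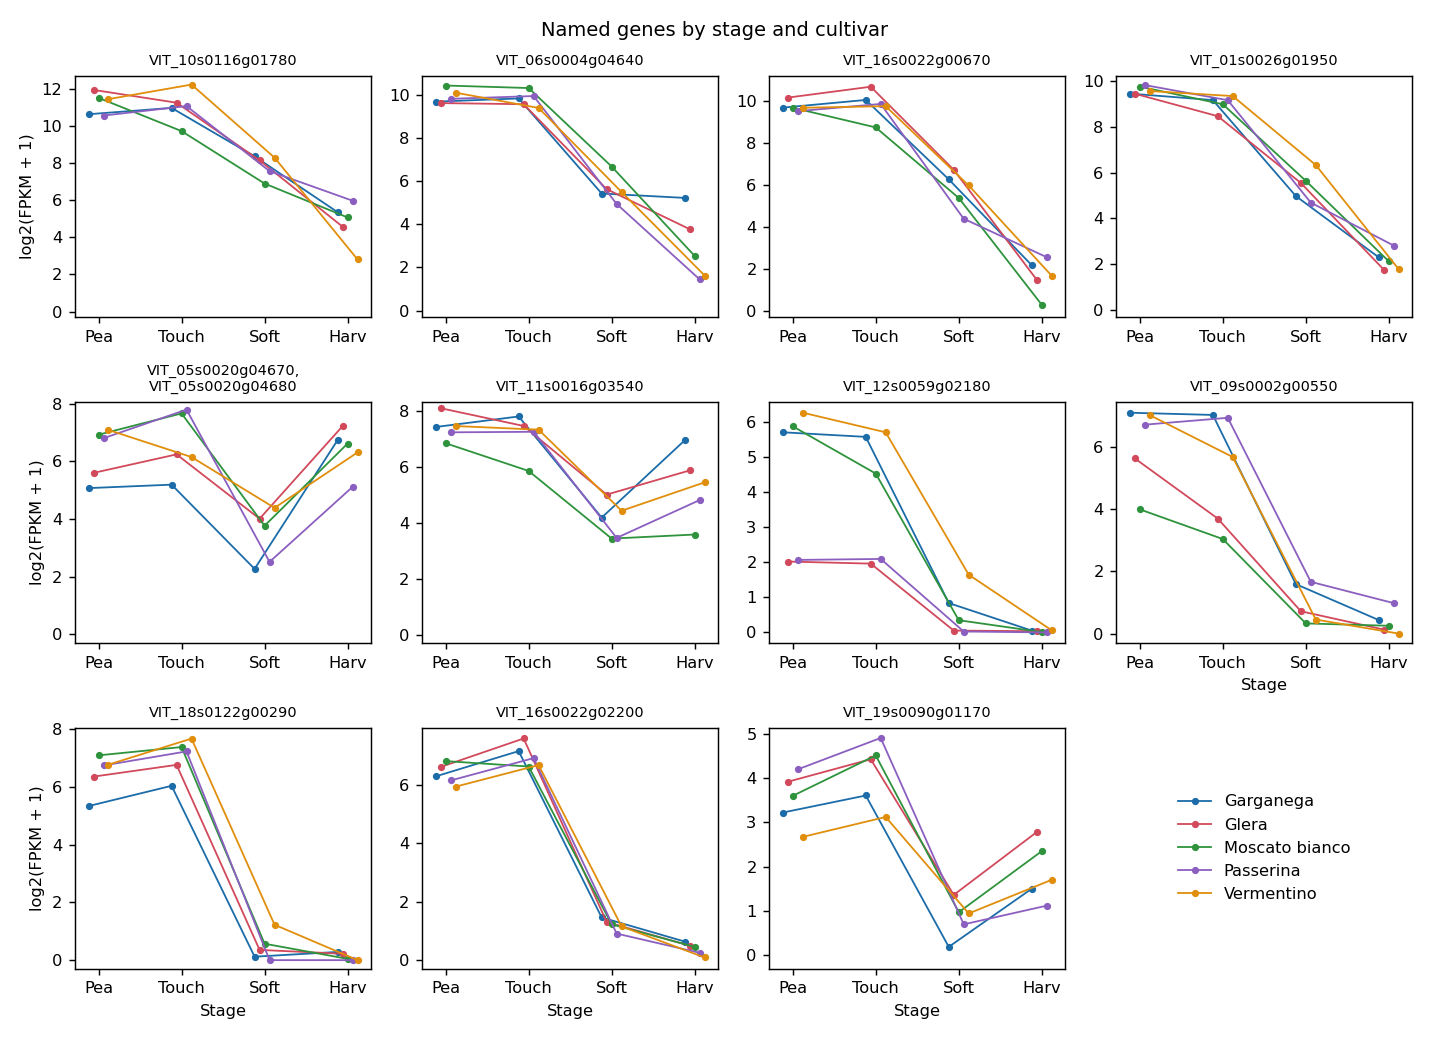
log2(FPKM + 1) of the named genes by stage, with a line for each cultivar. Most panels drop from Touch to Soft and again to Harv; VIT_05s0020g04670,VIT_05s0020g04680 returns at Harv, and in VIT_12s0059g02180 Glera and Passerina run far below the other 3 cultivars at Pea and Touch.

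The same fall at softening with another green course was found in 67 more genes. Of these, 42 had a Pea mean at least 1 above Touch and 25 a Touch mean at least 1 above Pea. From Soft to Harv, 12 of the 42 were called lower and 0 higher, and 10 of the 25 were called lower and 0 higher, against 38 lower and 3 higher of the 136. The median changes were -0.62 for the 42, -0.75 for the 25 and -0.65 for the 136. The green cultivar difference was called in 12 of the 42, 7 of the 25 and 38 of the 136. These shares were not tested either.

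Some of the 136 rows have a close neighbour in number within the group. Leaving aside identifiers joined in the same row, 5 pairs of rows, made of 10 of the 136 rows, had identifiers that agree up to their last number and differ there by at most 20. What the numbers stand for is not given in the sources used here, and where such genes are near-identical copies their fragments can be shared between rows.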

How the data were processed

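The authors deposited 1 table of FPKM with 20 columns, each their mean for a cultivar and stage per the file headers and name. TopHat2 2.0.6 and Cufflinks 2.0.2 were used, per the submitters' processing notes. The sources used here do not give their roles, the genome build or the annotation. The libraries were non-directional per the labels' protocols, so overlapping and antisense genes cannot be told apart. The column names gave the group of all 20 columns, with 0 columns left over. Single libraries were not analysed here, and the depth is unknown.

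The 136 genes, the rule that chose them and the lists were set with earlier results of these data known. Tests covered the 20833 genes that reached 1 FPKM in any column, among them all 136, which pass through their green values. Values were log2(FPKM + 1), so changes of low genes are understated. limma 3.58.1 in R 4.3.3 (trend, Benjamini-Hochberg adjustment over all genes tested) was fitted to all 20 columns with stage and cultivar as terms (12 residual degrees of freedom) for Harv against Soft. It was fitted to the 10 green columns (4 residual degrees of freedom) for the cultivar term. Calls needed an adjusted p under 0.05 and 2-fold. P-values measure unevenness between cultivars or stages, not between libraries. The fits and the rule were run on simulated data with large changes planted in well-expressed genes. Planted changes near 2-fold, or in genes near 0, were not covered. Named genes are, by a fixed rule, the top 2 by green level, by fall, by each direction of Harv against Soft and by green cultivar range; the rule was shortened to 2 each because the identifiers have no names. Lists by gene function were not used for the same reason. Alternatives were other pseudocounts, filters, scalings, limma settings, sets of columns and limits, and leaving out each cultivar. Figures were drawn with matplotlib 3.10.9.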

Additional observations from a re-analysis of the deposited data

Results flagged for a closer look

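Over 69 sets of 5 cultivar values (group summaries by stage, and named genes by stage), 3 had a value far from the other 4, where chance gives about 3.45. VIT_06s0004g04640 at Soft stood at 102 FPKM in Moscato bianco, against 29.8 to 48.5 FPKM in the other cultivars. VIT_16s0022g00670 at Pea stood at 1137 FPKM in Glera, against 727 to 817 FPKM in the others. The count of genes at least 2-fold lower at Soft than at Touch was 135 in Garganega and 136 in each of the others, a difference of a single gene.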

How the results depend on the processing

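No paired analysis was possible because the columns are means over the 3 libraries of a group and carry no replicate numbers; cultivar, the only pairing the columns allow, is already a term of the fits. The number of genes that meet the rule depends on the scale: it was 214 with a pseudocount of 0.5, 33 with a pseudocount of 5, 83 with columns scaled to equal medians and 78 with quantile normalization. It was 588 with a fall limit of -2, 33 with a limit of -4, 82 with Touch and Pea less than 0.5 apart, and 117 to 164 with 1 cultivar left out. The share of genes chosen on 4 cultivars that were at least 2-fold lower in the fifth was 98.5%, and 97.5% to 98.8% under the alternatives. For the fixed 136 genes, calls of a lower value at Harv numbered 38, and 10 with a pseudocount of 5; with the other alternatives they numbered 30 to 55. Calls of a higher value numbered 3, and 1 (without Garganega) to 3 with 1 cultivar left out. Green cultivar differences were called in 38 genes, and in 19 (14%, against 9.68% of all genes) with no filter on low values (the cause was not tested). With 1 cultivar left out the number was 22 (without Passerina) to 32, or 16.2% to 23.5% of the 136 genes, against 11.9% to 14.6% of all genes, with fewer columns in each fit. The named genes called between Soft and Harv kept their direction in these alternatives, although some of the calls were lost. Counts and cultivar ranges have no direction that could reverse. Chosen after seeing the data, other scalings and pseudocounts gave 31 to 46 genes at least 2-fold lower at Touch than at Pea in Moscato bianco (42 as reported), and Passerina was the lowest at Soft in 61 or 62 genes (62 as reported). In Passerina 6 genes were at least 2-fold lower at Harv than at Soft with a pseudocount of 5, against 20 as reported. Depth is unknown, so values under 1 FPKM carry an unknown counting error.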
